A study of Mus musculus and Mus musculus musculus x Mus musculus castaneus with 8 samples.

Results

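Sites open in all 4 main peak lists were examined across ATAC-seq of mouse C2C12 myoblasts, of embryonic fibroblasts of the mouse (MEFs) that served as donors, and of such MEF nuclei after nuclear transfer (NT) into Xenopus laevis oocytes. ATAC-seq lets the Tn5 transposase insert adaptors into accessible DNA, so called peaks mark open chromatin. The sites were chosen by the peak calls themselves: a donor MEF peak was taken when it overlapped, by at least 1 bp, a C2C12 peak from 50000 cells, a peak after control NT and a peak after NT into oocytes that overexpressed Toca1. Of 39592 donor MEF peaks, 2693 met the rule (6.80%), and these are called common sites here. The donor MEFs came from embryos of a Mus musculus musculus by Mus musculus castaneus cross and were permeabilized for NT, and C2C12 is a C3h myoblast line. The donor list stands for 1 library of 3000 cells, the control NT list for 2 libraries of 3000 cells taken 48 h after NT, the Toca1 list for 1 such library and the C2C12 list for 2 libraries. One more list, from 1000 C2C12 cells (2 libraries), was not used by the rule. The authors deposited 1 list per condition, so libraries of a group cannot be compared, no value has a replicate check, and the treatment cannot be told apart from the library. The lists hold positions only, without reads or scores, so depth is unknown, and more or wider peaks in a list cannot be told apart from more reads.

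The calls narrowed the donor peaks in unequal steps. A C2C12 peak overlapped 25562 donor peaks (64.6%), a control NT peak 3854 (9.73%) and a Toca1 peak 7798 (19.7%). Among the donor peaks shared with C2C12, those with a control NT peak also had a Toca1 peak in 75.4% of cases (2693 of 3572), against 20.4% of those without one. Of the 14030 donor peaks absent from C2C12, 112 were in both NT lists (0.798%). These counts describe the calls that chose the sites and were not tested.

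Open chromatin is DNA from which nucleosomes have been displaced, so that transcription factors and RNA polymerase can reach it. Sites that are open in many cell types are known to lie mostly at promoters of broadly used genes, many of which are rich in CpG, whereas enhancers tend to be open in particular cell types. In the germinal vesicle of a Xenopus oocyte, transplanted somatic nuclei change their transcription without dividing or replicating their DNA. Toca1 (Fnbp1l) is a membrane-binding adaptor that promotes actin polymerization.

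Some promoters at or beside common sites are shown first, as examples. They are not a sample of the common sites, and the share of these sites that lie at promoters was not measured. Each line gives the 250 bases before the RefSeq gene start (GRCm38.p6), 5′ to 3′ in the direction of the gene. Capitals mark GC boxes (GGGCGG, the core bound by SP and KLF factors) and CCAAT boxes (CCAAT, bound by NFY), on either strand. The common stretch is the run of bases shared by 4 peaks, the donor peak and the peak of each other list that overlaps it most. Of 13 protein-coding genes with a single RefSeq promoter, a side known from the strand and a common stretch that reached at least 250 bp upstream of the start, Pgrmc2, Smurf2, Hdac4 and Top1 had the longest. Tcf19 is shown because the study draws a site beside its start, and whether its 250 bases lie in the peaks was not checked.
Pgrmc2: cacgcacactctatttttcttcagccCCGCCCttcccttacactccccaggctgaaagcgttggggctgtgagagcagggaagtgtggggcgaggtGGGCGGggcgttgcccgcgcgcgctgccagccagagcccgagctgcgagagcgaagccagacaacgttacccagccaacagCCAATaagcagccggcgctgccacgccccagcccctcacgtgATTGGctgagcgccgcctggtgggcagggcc
Smurf2: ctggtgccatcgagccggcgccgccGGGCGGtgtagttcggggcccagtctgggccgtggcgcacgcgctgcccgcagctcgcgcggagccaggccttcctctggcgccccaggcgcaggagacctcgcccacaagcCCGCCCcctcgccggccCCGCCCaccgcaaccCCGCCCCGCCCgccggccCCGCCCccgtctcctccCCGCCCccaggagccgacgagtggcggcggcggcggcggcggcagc
Hdac4: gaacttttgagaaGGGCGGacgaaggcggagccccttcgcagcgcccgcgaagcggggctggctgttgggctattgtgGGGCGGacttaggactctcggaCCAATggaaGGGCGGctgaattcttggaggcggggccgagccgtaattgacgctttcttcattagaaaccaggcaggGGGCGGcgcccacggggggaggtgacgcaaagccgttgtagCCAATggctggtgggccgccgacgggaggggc
Top1: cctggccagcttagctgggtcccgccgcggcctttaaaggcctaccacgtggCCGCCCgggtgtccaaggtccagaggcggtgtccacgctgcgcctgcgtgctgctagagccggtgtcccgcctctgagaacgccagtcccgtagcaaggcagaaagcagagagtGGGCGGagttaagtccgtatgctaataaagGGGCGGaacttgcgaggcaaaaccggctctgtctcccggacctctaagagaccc
Tcf19: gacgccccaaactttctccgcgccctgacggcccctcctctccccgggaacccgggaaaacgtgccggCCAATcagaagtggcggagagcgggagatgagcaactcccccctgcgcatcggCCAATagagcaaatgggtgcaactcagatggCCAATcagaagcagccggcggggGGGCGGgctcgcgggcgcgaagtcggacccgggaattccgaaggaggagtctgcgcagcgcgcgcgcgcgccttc

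In GRCm38.p6 the Pgrmc2 stretch is chr3:41083047-41083296 on the minus strand, the Smurf2 stretch chr11:106920716-106920965 on the minus strand, the Hdac4 stretch chr1:92180342-92180591 on the minus strand, the Top1 stretch chr2:160645647-160645896 on the plus strand and the Tcf19 stretch chr17:35516825-35517074 on the minus strand. The peak lists are in mm9 by the submitters' processing notes, so these coordinates cannot be set beside those of the peaks. Smurf2 held 7 GC boxes and no CCAAT box, and its 250 bases were 82.0% G or C. Hdac4 held 4 GC boxes and 2 CCAAT boxes, Pgrmc2 2 of each, Top1 3 GC boxes, and Tcf19 1 GC box and 3 CCAAT boxes. The ratio of observed to expected CpG lay between 0.710 (Pgrmc2) and 1.00 (Tcf19) in these promoters. A match of letters is a description and not a bound site.

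The peaks at Pgrmc2, a membrane-associated progesterone receptor component, had the longest common stretch of these, 603 bp. They were 626 bp wide in donor MEFs, 1126 bp in C2C12 cells, 797 bp after control NT and 1035 bp with Toca1. The site drawn by the study between the starts of Tcf19, a nuclear protein with a PHD finger, and Cchcr1, a coiled-coil protein, is on chr17:35653703-35654203 in donor MEFs (mm9). The peak was 501 bp wide in donor MEFs, 643 bp in C2C12 cells, 307 bp after control NT and 659 bp with Toca1. All 307 bp of the control NT peak lay in the other 3 peaks. No peak of the 1000-cell list overlapped this site. The placing of gene starts described next put none at this site.

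Gene starts were placed at common sites from the study's table of newly opened peaks, which gives the closest start and its distance for each of its peaks. A gene was kept when only 1 of the 2 positions at that distance fell in a donor MEF peak. This placed 561 genes in a donor peak, 171 of them in 170 common sites. Where the strand of the gene told on which side the start must lie, the side was right in 187 of 194 cases, and the 7 others were dropped. For only 46 of the 171 genes does the side follow from the strand. The placed genes are neighbours of newly opened peaks, and the table was held in part, so they are no fair sample of the common sites and no share or test was drawn from their number. None of the 171 belonged to the 12 lists that were set for this report, which were cytosolic and mitochondrial ribosomal proteins, proteasome, RNA polymerase II, translation initiation, splicing and the MCM helicase, the genes Actb, Actg1 and Gapdh, and markers of fibroblasts, myoblasts, pluripotency and the immediate early response. Of these lists, 9 genes were placed in any donor peak: Rpl11, Rpl5, Mrps6, Psmg3, Eif2s2, Eif3c, Snrpe, Srsf6 and the fibroblast marker Twist2. The lookup misses most genes, so 0 of 9 does not show that such genes lack common sites, and the cell types could not be checked against their markers.

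Over the 171 genes, the control NT peak was narrower than the other 3 at 114 (66.7%), the Toca1 peak was wider than the control NT peak at 146 (85.4%), and the median of their ratio was 1.86. A width does not show whether the peak covers the gene start. The genes named next were picked from the 171 after their names and values had been seen, for roles that are well known, so nothing follows from them about a group of genes. Of these, the side of Top1, Rpa1, Lig3, Hdac4, Arid4b, Kansl1, Stat3, Nup50, Smurf2 and Uqcrh follows from the strand. Among genes of DNA topology, replication and repair, Top1, which relaxes supercoiled DNA, had peaks of 537 bp in donor MEFs, 585 bp in C2C12 cells, 499 bp after control NT and 1541 bp with Toca1. Rpa1, the large subunit of the protein that coats single-stranded DNA, had 432, 684, 528 and 727 bp in the same order. Lig3, a DNA ligase of repair, had 573, 808, 686 and 867 bp. At these 3 genes the peak was widest with Toca1, and at Rpa1 and Lig3 the control NT peak was wider than the donor peak. Over all 171 genes, Toca1 gave the widest peak at 74 (43.3%), and control NT exceeded the donor peak at 37 (21.6%). Rfc3, a subunit of the clamp loader, ran the other way between the NT lists, with 648 bp after control NT and 593 bp with Toca1.

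Several regulators of chromatin and transcription had their start in a common site. Hdac4, a class IIa histone deacetylase, had peaks of 813 bp in donor MEFs, 862 bp in C2C12 cells, 483 bp after control NT and 1490 bp with Toca1. Suz12, a core subunit of the Polycomb complex PRC2, had 839, 1056, 557 and 1254 bp. Hira, a chaperone of histone H3.3, had 609, 1239, 215 and 477 bp. In each of these 3 the control NT peak was the narrowest. At Hira it ended 26 bp upstream of the placed start and did not cover it. Other regulators differed. Arid4b, a subunit of Sin3 histone deacetylase complexes, had 862, 1235, 513 and 274 bp, so the Toca1 peak was the narrowest. The control NT peak at Arid4b ended 95 bp upstream of the placed start, and the Toca1 peak covered that start. Kansl1, a scaffold of the NSL histone acetyltransferase complex, had 857, 469, 899 and 1435 bp. The transcription factor Stat3, which relays cytokine signals, had 662, 760, 672 and 995 bp, and Max, the partner of Myc, had 666, 869, 409 and 995 bp. Snai1, a repressor that acts in the epithelial to mesenchymal transition, had similar widths after NT, with 385 bp in the control and 414 bp with Toca1, against 418 bp in donor MEFs. Klf2, a zinc finger factor, had 609 bp in donor MEFs and 286 bp after control NT.

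Genes of nuclear transport and of signalling were also present. Kpnb1, which encodes importin beta, had a donor peak of 676 bp, a control NT peak of 176 bp and a Toca1 peak of 897 bp. The control NT peak at Kpnb1 ended upstream of the placed start and did not cover it, whereas the Toca1 peak did. Nup50, a nucleoporin, had 679, 288 and 1185 bp in the same lists. At both the Toca1 peak was more than 4 times as wide as the control peak, with ratios of 5.10 and 4.11. At Hikeshi, a nuclear import carrier, the ratio was 0.819, with 677, 309 and 253 bp, and the 4 peaks taken shared no base there. Dusp1, a phosphatase that inactivates MAP kinases, had 1030, 491 and 1266 bp. Smurf2, a ubiquitin ligase of TGF-beta signalling, had 558, 518 and 1098 bp. Socs1, a feedback inhibitor of cytokine signalling, had 1166, 326 and 920 bp, so its peak stayed wider in donor MEFs than with Toca1.

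The common stretch sat mostly upstream of the gene starts. Of the 164 placed genes whose site had a common stretch, 121 had the start inside it (73.8%). The stretch reached a median of 228 bp upstream of the start and 100 bp downstream, and its centre was upstream in 115 of 164 genes (70.1%). At 250 bp upstream, donor MEF peaks covered 74.9% of the 171 genes and at 250 bp downstream 39.2%. Control NT peaks covered 50.9% and 32.2%. The Toca1 peaks covered 67.8% and 74.9% at the same distances. C2C12 peaks covered 81.3% and 70.8%. At this distance donor MEF, C2C12 and control NT calls were more frequent upstream, and Toca1 calls downstream. Nearer the start the Toca1 calls were more frequent upstream too, with 91.8% at 100 bp upstream and 86.0% at 100 bp downstream. Donor peaks cover each start by the way genes were placed, and the difference between the lists was not tested.

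**Figure D1:**
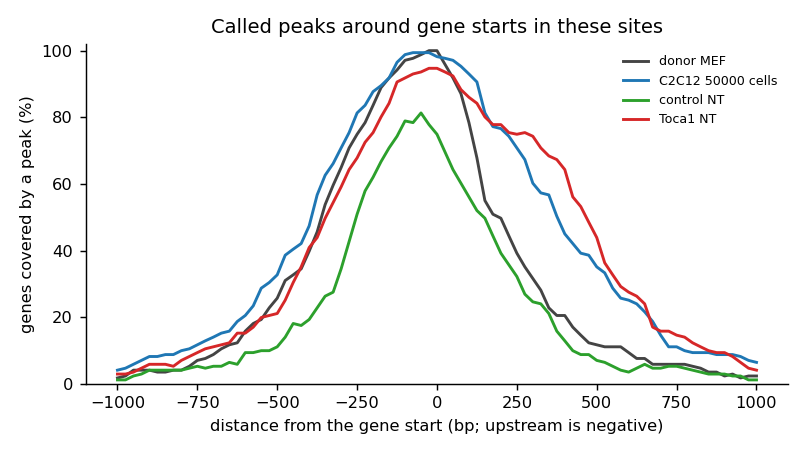
Share of the 171 placed genes (y axis, percent) whose position at each distance from the gene start (x axis, bp, upstream negative) was covered by a peak of each list. Control NT reached at most 81.3%, at 50 bp upstream, and the Toca1 curve stayed at 74.9% at 250 bp downstream, where control NT covered 32.2%.

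Promoter sequence, which the rule did not use, was compared for placed protein-coding genes with 1 RefSeq promoter, over the 250 bases before the start. Among 140 promoters at common sites, 106 were rich in CpG (75.7%, 95% Wilson interval 68.0% to 82.1%), meaning at least 55% G or C and a CpG ratio of at least 0.6. The share was 51.6% (interval 41.5% to 61.6%) among 91 promoters at donor peaks shared with C2C12 but absent from both NT lists, and 74.7% (interval 67.8% to 80.6%) among 174 at peaks shared with C2C12 and kept with Toca1 only. Of all 14731 such promoters in RefSeq, 36.0% were CpG-rich. The median G and C content was 65.2% at common sites, 57.2% at the sites absent after NT and 54.8% overall. So the common sites and those kept with Toca1 only had nearly the same share, and the sites absent after NT a lower one, in a comparison that was not tested because the genes come from a table held in part.

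GC boxes were the most frequent of the 9 motifs at common sites, in 72.1% of the promoters at common sites, 54.9% at sites absent after NT, 71.8% at sites kept with Toca1 only and 41.8% of all promoters. CCAAT was in 51.4% (interval 43.2% to 59.6%) at common sites, 44.0% (interval 34.2% to 54.2%) at sites absent after NT, 34.5% (interval 27.8% to 41.8%) at sites kept with Toca1 only and 36.9% of all promoters. The AP-1 letters TGANTCA were in 3 of 140 promoters at common sites (2.14%) and 9 of 91 at sites absent after NT (9.89%), against 2.87% at sites kept with Toca1 only and 6.27% of all. E-boxes (CANNTG) were in 44.3% at common sites, 53.8% at sites absent after NT, 52.3% at sites kept with Toca1 only and 63.1% of all. The ETS letters CCGGAAGT were in 8.57%, 5.49%, 9.77% and 3.81% in the same order, and the NRF1 letters GCGCATGC in 5.00%, 5.49%, 3.45% and 2.95%. The CRE letters TGACGTCA were in 5 of 140 promoters (3.57%), in 0 of 91 (interval up to 4.05%), in 2.87% and in 1.98% of all. The CTCF letters AGGGGGCG, part of the motif, were in 15.7%, 14.3%, 12% (21 of 174) and 7.19%, and the YY1 letters AAGATGGC in 0.714%, 3.30%, 2.87% and 1.51%. No difference in motif shares was tested. Median G and C content was 65.2% at common sites, 57.2% at sites absent after NT, 64.6% at sites kept with Toca1 only and 54.8% in all promoters. Motif shares were not adjusted for it. The motifs also differ in length, so the shares of unlike motifs are not comparable. All 9 motifs were searched on both strands. AGGGGGCG can overlap a GC box by its last bases.

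The width of the called peak changed from list to list at the same site. Widths come from the lists that chose the sites and are given as a description. Where several peaks overlapped a site, the one with the largest overlap was taken, and 80 sites held 2 control NT peaks, 43 held 2 Toca1 peaks and 99 held 2 or 3 C2C12 peaks. The donor MEF peak had a median width of 578 bp (quartiles 448 and 726 bp), the C2C12 peak 772 bp (587 and 975 bp), the control NT peak 417 bp (304 and 547 bp) and the Toca1 peak 749 bp (552 and 968 bp). In their whole lists the medians were 399 bp, 392 bp, 291 bp and 467 bp, so the common sites held the wider peaks of each list. Control NT gave the narrowest of the 4 peaks at 1748 sites (64.9%), and C2C12 or Toca1 the widest at 1214 (45.1%) and 1116 (41.4%).

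**Figure D2:**
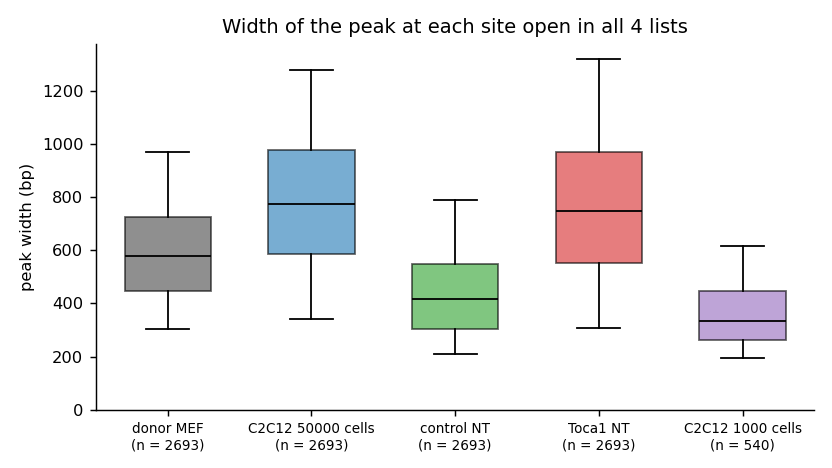
Peak width in bp (y axis) at the 2693 common sites in each list, and at the 540 of them with a peak of the 1000-cell list. Boxes show quartiles with the median as a line and whiskers the 5th and 95th percentiles. Control NT peaks, with a median of 417 bp, lay below donor MEF (578 bp), C2C12 (772 bp) and Toca1 peaks (749 bp).

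Within a site, the control NT peak was 0.732 times as wide as the donor peak (median, quartiles 0.520 and 0.991). It was wider than the donor peak at 658 sites (24.4%) and equally wide at 5. The Toca1 peak was 1.72 times as wide as the control NT peak (median, quartiles 1.20 and 2.47) and wider at 2304 of 2693 sites (85.6%). It was 1.27 times as wide as the donor peak and 0.965 times as wide as the C2C12 peak. The order of the sites by width was kept only loosely. Across sites, Spearman's rho of widths was 0.39 between donor MEFs and C2C12, 0.17 between donor MEFs and control NT, 0.21 between control NT and Toca1 and 0.30 between C2C12 and Toca1. These points share the same DNA and width floor of 150 bp, and the values are descriptions.

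The peaks taken from the 4 lists shared at least 1 bp at 2612 sites (97.0%), with a median common stretch of 312 bp, and at least 150 bp at 2423 sites (90.0%). At the other 81 sites each list overlapped the donor peak but no base was in all 4. The centre of the control NT peak lay a median of 89.5 bp from the donor centre, that of the C2C12 peak 82.0 bp and that of the Toca1 peak 132 bp. In genome coordinates the signed shifts had medians of -2.0, 2.0 and 5.5 bp in the same order. They were not turned by gene strand, so they do not show whether peaks moved upstream or downstream of genes. Control NT peaks lay wholly inside the donor peak at 1221 sites (45.3%) and enclosed it at 209 (7.76%). For Toca1 the numbers were 419 (15.6%) and 782 (29.0%), and for C2C12 282 (10.5%) and 1314 (48.8%). The control NT peak lay inside the Toca1 peak at 1403 sites (52.1%).

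**Figure D3:**
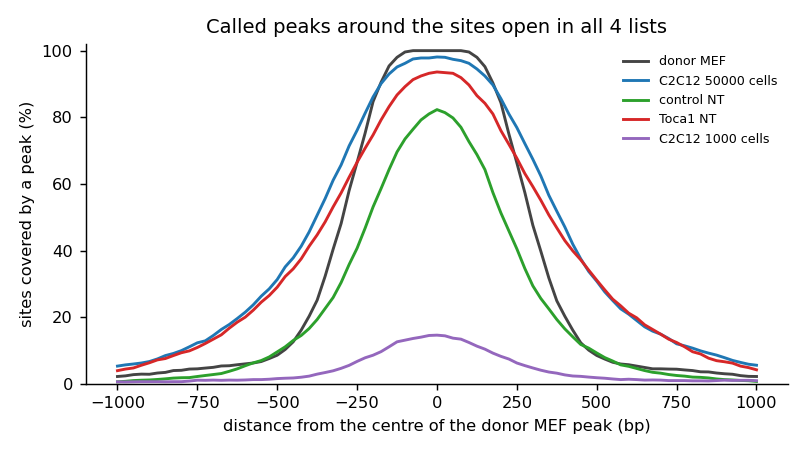
Share of the 2693 common sites (y axis, percent) covered by a peak of each list at each distance from the centre of the donor MEF peak (x axis, bp). At the centre control NT covered 82.3% and Toca1 93.6%, and at 500 bp to the right control NT covered 9.25%, donor MEFs 8.50%, C2C12 30.8% and Toca1 31.1%.

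The extremes show how far single sites depart from these medians. The longest common stretch, 904 bp, was at chr13:112515239-112516178 (mm9), where the donor peak was 940 bp wide, the C2C12 peak 1227 bp, the control NT peak 946 bp and the Toca1 peak 1109 bp. Next came chr16:42875028-42876208 with a stretch of 884 bp, set by the whole control NT peak, and widths of 1181 bp in donor MEFs, 1524 bp in C2C12 cells and 1575 bp with Toca1. The 10 longest stretches ran from 787 to 904 bp. Over these 10 sites the Toca1 to control NT ratio lay between 0.795 and 1.78.

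At the other end, the Toca1 peak outgrew the control NT peak most at chr19:4396756-4397552, with 1817 bp against 217 bp, a ratio of 8.37. Of the 5 largest ratios, the last pair belonged to sites with placed gene starts. The peak at Uqcrh, a subunit of respiratory complex III, was 194 bp wide after control NT and 1392 bp with Toca1, beside 699 bp in donor MEFs and 849 bp in C2C12 cells (chr4:115747553-115748251). That at Fasn, the fatty acid synthase, was 201 bp and 1414 bp, beside 999 bp in donor MEFs and 896 bp in C2C12 cells (chr11:120685269-120686267). The site with the smallest ratio, 0.244, was chr1:51345614-51346305, with a control NT peak of 635 bp and a Toca1 peak of 155 bp, and there the 4 peaks shared no base. At chr5:109985858-109987227 the donor, C2C12 and control NT peaks were 1370, 1360 and 1256 bp wide and the Toca1 peak 405 bp.

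**Figure D4:**
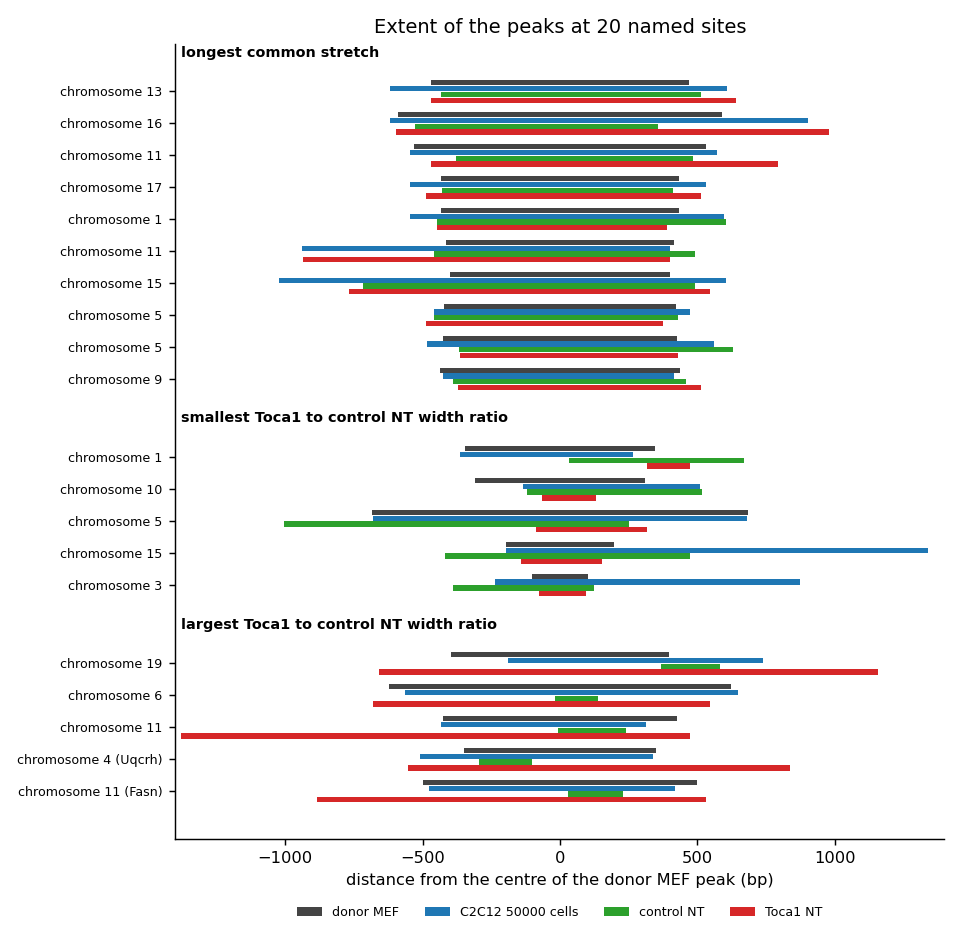
Extent of the peak of each list around the donor MEF centre (x axis, bp) at 20 common sites (rows, labelled by chromosome and, where placed, the gene): the 10 with the longest common stretch and the 5 each with the smallest and largest ratio of Toca1 to control NT width. The control NT bar is short against the others in the last group (217 bp against 1817 bp in its first row), and the Toca1 bar in the second (155 bp against 635 bp in its first row).

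Some sites only just met or missed the rule. The shortest common stretch was 1 bp, at chr2:127161551-127161953 and chr6:145695052-145695395, and 3 bp at chr14:121778914-121779382. Just outside, the donor peak at chr17:68353158-68353917 was shared with C2C12 and Toca1 and lay 2 bp from a control NT peak. The peaks at chr19:5912509-5913054 and chr2:167318320-167318811 lay 4 bp from a Toca1 and a control NT peak. Of the 5354 donor peaks shared with C2C12 and 1 NT list, 110 had a peak of the missing list within 100 bp and 382 within 500 bp.

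The 1000-cell C2C12 list gives a readout that the rule did not use, though from the same cell line as one of its lists. The 50000-cell list of that line overlapped 64.6% of donor MEF peaks, whereas the 1000-cell list, with 34771 peaks, overlapped 6.03%. A peak of this list overlapped 540 of the 2693 common sites (20.1%, 95% Wilson interval 18.6% to 21.6%), against 6.03% of all donor MEF peaks. Among donor peaks shared with C2C12, the share was 13.4% (interval 11.3% to 15.8%) for those kept in control NT only, 12% (537 of 4475, interval 11.1% to 13.0%) for those kept with Toca1 only and 5.50% (interval 5.17% to 5.85%) for those absent after NT. Common sites thus exceeded these classes by 6.63 (Newcombe interval 3.80 to 9.24), 8.05 (6.28 to 9.86) and 14.6 percentage points (13.0 to 16.1). Donor peaks in no other main list had 1.51%. The intervals cover counting error over sites and not variation between libraries.

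Peak width moved with this result. Common sites had wider donor peaks (median 578 bp) than the shared peaks absent after NT (406 bp), and wider C2C12 peaks (772 against 453 bp). The difference from the sites absent after NT held in each width class of 25% of donor peaks, at 6.66 percentage points in the narrowest (interval 2.64 to 12.9), 6.45 and 9.47 in the next, and 15.7 in the widest (lower bound 13.4). By width of the C2C12 peak, a division added after the data were seen, it was 3.63 points in the narrowest class (interval 0.684 to 8.66), 6.49, 9.78 and 15.6 points (13.2 to 18.1). The comparison with sites kept in 1 NT list only varied more with width. In the widest donor class it was 8.95 points from the control-only sites (interval 4.36 to 13.0) and 9.72 from the Toca1-only sites (7.06 to 12.4), while in each of the 3 narrower donor classes both intervals included 0. By C2C12 width, the class next to the widest was also clear of 0 against the Toca1-only sites (3.91 points, interval 0.652 to 7.32). Against the control-only sites it was not (2.97 points, interval -2.49 to 7.71).

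**Figure D5:**
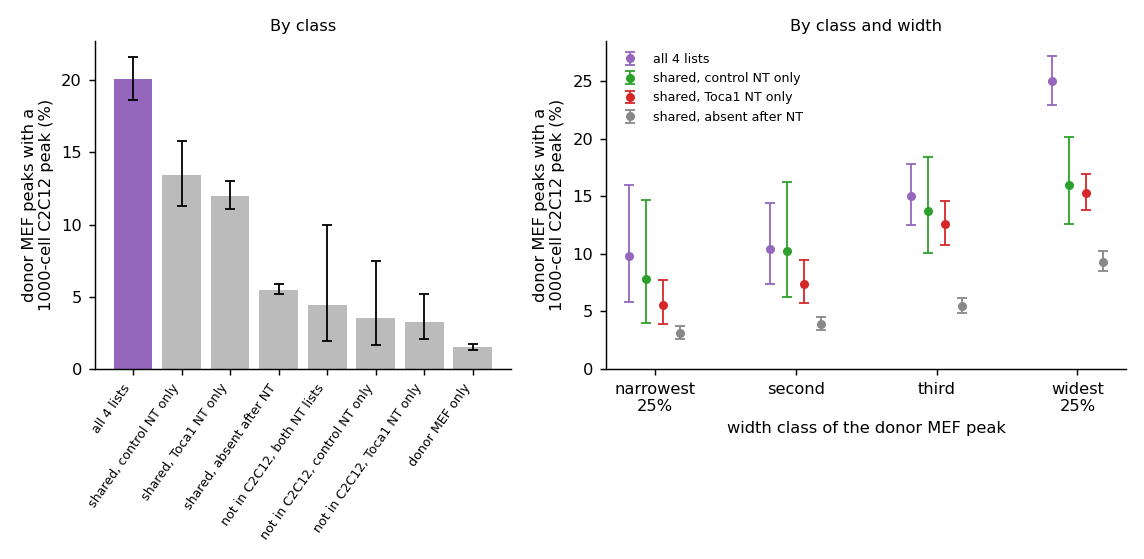
Share of donor MEF peaks overlapped by a 1000-cell C2C12 peak (y axes, percent) with 95% Wilson intervals, by class of donor peak on the left and by width class of the donor peak on the right for the 4 classes shared with C2C12. Common sites (all 4 lists) stood at 20.1% overall and at 25.0% among the widest peaks, where sites absent after NT had 9.30%.

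Among the common sites themselves, the widest 25% by each list had a 1000-cell peak more often than the narrowest 25%. The shares in the narrowest and widest were 10.1% and 28.0% by donor width, 12.2% and 26.8% by C2C12 width, 15.9% and 25.1% by Toca1 width and 17.6% and 25.6% by control NT width. The peaks taken from all 5 lists shared at least 1 bp at 486 sites. The longest stretch in all 5 was 652 bp, at chr5:130417033-130417974, with peaks of 942 bp in donor MEFs, 959 bp in C2C12 cells, 717 bp after control NT, 652 bp with Toca1 and 797 bp in the 1000-cell list. Of the 164 genes placed at a site with a common stretch, 36 had a 1000-cell peak (22.0%, beside 20.1% of all common sites), among them Top1 (660 bp), Kpnb1 (354 bp), Nup50 (373 bp) and Rfc3 (445 bp).

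Seen from the other lists, the common sites took up unequal parts. They held 2733 of 8257 control NT peaks (33.1%, interval 32.1% to 34.1%) and 42.8% of the length that list covers. For Toca1 the numbers were 2681 of 16412 peaks (16.3%, interval 15.8% to 16.9%) and 23.3% of the length, and for C2C12 2752 of 52697 peaks (5.22%) and 8.71%. For the 1000-cell list they were 547 of 34771 peaks (1.57%) and 1.98%.

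The common sites were spread over all 20 chromosomes of the lists, with few on chromosome X. They made up 25 of the 886 donor peaks on X (2.82%, 95% Wilson interval 1.92% to 4.13%) and between 5.34% (chromosome 12, interval 4.21% to 6.75%) and 9.19% (chromosome 11, interval 8.12% to 10.4%) on the 19 autosomes. Peaks and chromosomes are not replicates, so the difference between X and the autosomes was not tested. Of the donor peaks shared with C2C12, 4.22% on X were common sites, against 7.54% to 13.5% on the autosomes. On 19 of 20 chromosomes the share with a 1000-cell peak was higher at common sites than at shared sites absent after NT, and X, with 1 of 25 sites against 6.36%, was the exception.

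Common sites stood farther from the next donor peak than the other shared sites. The median gap was 12673 bp, against 9411 bp for sites kept in control NT only, 9177 bp for those kept with Toca1 only and 8225 bp for those absent after NT. A donor peak lay within 5000 bp of 26.8% of the common sites and of 34.1%, 35.4% and 36.5% of these other shared classes. Outside C2C12 the share was 26.8% for donor peaks in both NT lists and 31.2% for those in control NT only. It was 33.8% for those with Toca1 only and 28.8% for donor peaks in no other main list, so a low share was not particular to common sites. These values were not tested.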

How the data were processed

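ATAC-seq peak lists of mouse cells were used, 1 per condition, as the authors deposited them: chromosome, start and end of peaks at a false discovery rate of 0.01, with no score, signal or read number. The submitters' processing notes name Bowtie2 2.2.1, Picard, MACS2 2.1 and mm9, without roles. Lists were assigned to conditions by their names, and whether libraries were pooled before calling is not stated. Starts were made 1-based.

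Overlaps of at least 1 bp, widths, gaps, quartiles and 95% Wilson and Newcombe intervals (counting error over peaks only) were computed with Python 3.11.15, scipy 1.17.1 and matplotlib 3.10.9. Intervals with known overlaps were simulated to test the code. No p-value is given, because there is 1 list per condition. Gene starts were placed through distances in the study's table of newly opened peaks. Names, strands and promoter sequences came from RefSeq (GRCm38.p6), whose coordinates were not compared with the lists. A genome in mm9 was not used here, so the sequence of the peaks was not read.

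Sites named were the 10 with the longest stretch in 4 lists, the 5 with the longest in 5 lists, the 5 smallest and 5 largest Toca1 to control NT ratios, the 3 shortest stretches, the 3 nearest misses and the 3 densest windows of 100 kb, and the longest or most extreme are given in full. Members, gene lists and rules were chosen with earlier results of these data known. The alternatives were a reciprocal overlap of 50%, peaks within 500 bp, joining up to 150 bp, a width of at least 250 bp, autosomes only, other units and width classes.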

Additional observations from a re-analysis of the deposited data

How the results depend on the processing

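The excess of 1000-cell peaks at common sites over shared sites absent after NT kept its direction, with an interval clear of 0, under the 5 settings run for it and in the 4 classes each of donor and C2C12 peak width, the latter chosen after seeing the data. With a reciprocal overlap of at least 50%, 1135 sites remained. The same overlap was asked of the 1000-cell peaks, and 11.1% of the sites had one, so that share is not the same readout as in the main setting. The median width ratios were 1.43 (Toca1 to control NT) and 0.796 (control NT to donor). With peaks of at least 250 bp the share was 16.8% and the ratios were 1.65 and 0.775 (2255 sites). The control NT to donor ratio was 0.751 with peaks within 500 bp counted and 0.715 with peaks up to 150 bp apart joined. Requirements on overlap or width limit these ratios by construction, and otherwise the cause was not tested. The number of sites was 2806 as groups of overlapping peaks and 2677 as control NT peaks. Analyses of peak sequence and of distances to starts, planned for the case of an mm9 genome, were not run. No paired analysis was possible because each list stands for all libraries of a condition. Depth is unknown, so the absence of a call is not closed chromatin.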

Other observations

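Common sites rarely lay side by side. The median gap between neighbours on a chromosome was 330299 bp, and 59 of 2673 neighbouring pairs lay within 1000 bp. The same control NT peak served both sites of 34 pairs, the same Toca1 peak 54 and the same C2C12 peak 39, so the sites of such a pair are not independent. Of 2375 windows of 100 kb with a common site, 2091 held exactly 1 and 5 held the highest number, 4. The first 3 of these were chr1:136300001-136400000, where 4 donor, 4 control NT and 4 Toca1 peaks were found, chr2:174200001-174300000 with 5 donor peaks and chr7:38800001-38900000 with 6. The first holds the site placed at Rabif and the third that placed at Uri1, a prefoldin-like protein.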
